A study of Mus musculus with 2 samples.

Results

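Classical monocytes low in Saa3 were examined among CD45+ leukocytes from the livers of mice with intrahepatic cholangiocarcinoma, a tumour of the bile duct lining. They were chosen by transcript counts, as barcodes with at least 5 UMIs summed over Ly6c2, Ccr2, Vcan and Chil3 and at least 1 UMI of Csf1r. A UMI is the tag of 1 captured transcript molecule. The choice also required at most 4 UMIs summed over the complement genes C1qa, C1qb and C1qc, fewer than 3 of Saa3, and low or no counts of markers of neutrophils, nonclassical monocytes, lymphocytes, dendritic cells and of the activation genes Arg1 and Cxcl9. It found 1448 cells among 21211 kept barcodes, 794 of 10441 in the NAV library and 654 of 10770 in the MOCK library.

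The mice were C57BL/6 animals in which both groups received transposon vectors for Myr-AKT and YAPS127A, activated forms of a kinase and of a transcriptional coactivator, by hydrodynamic injection, which brings plasmids into hepatocytes. The NAV group got NAV2729, a small molecule that blocks ARF GTPases from being switched on, at 30 mg/kg every other day for 7 days starting 7 days after the injection, and the MOCK group went without it. Livers were digested and CD45+ cells sorted and captured on the BD Rhapsody platform, a microwell system with barcoded beads. Each group is 1 pooled library, and the number of tumours in a pool is uncertain, since the series' design text gives 6 and the protocol 3 pairs. The deposited tables held 31454031 UMIs in the NAV library and 45976676 in the MOCK library, with medians of 2178 and 3882 UMIs per kept barcode. With 1 library per group there is no replicate check and no test. All intervals are 95% intervals of counting error in these libraries, and log2 ratios are NAV over MOCK.

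Classical monocytes are short-lived cells of the bone marrow that enter the blood through the chemokine receptor CCR2 and are drawn into inflamed or tumour-bearing tissue, where they can become macrophages or dendritic-like cells. In the mouse they carry the surface protein Ly6C, which Ly6c2 encodes, and some lose it to become nonclassical monocytes that patrol vessel walls. Vcan encodes the matrix proteoglycan versican, Chil3 the chitinase-like protein Ym1, F10 coagulation factor X and Plac8 a small cysteine-rich protein of myeloid and lymphoid cells. Saa3 encodes an inducible serum amyloid A, an acute-phase protein, and Csf1r the receptor for the growth factor of monocytes and macrophages.

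The label fitted the marker genes, 4 of which the choice itself had used. Plac8 and F10 had no part in the choice. F10 had 544 UMIs in NAV cells and 417 in MOCK cells, or 169 and 139 CPM (UMIs of the gene in 1000000 UMIs of these cells), against 14.5 CPM in NAV and 9.16 in MOCK C1q-high macrophages. Plac8 had 2727 CPM in NAV and 1792 in MOCK cells, against 175 and 227 CPM in C1q-high macrophages. Both genes were about as abundant in nonclassical monocytes, with F10 at 204 and 155 CPM and Plac8 at 2401 and 2528 CPM, so in these libraries they did not set classical apart from nonclassical monocytes. These gates were cut from the same counts, as cells with at least 15 C1q UMIs for macrophages and at least 2 UMIs of Ace and Treml4 with fewer than 5 over the 4 monocyte genes for nonclassical monocytes, and differences between gates are given without a test.

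Within both libraries the cells stood furthest from C1q-high macrophages in macrophage residence genes that the choice had not named. Clec4f, a lectin of the resident macrophages of the liver, was at 1.24 CPM in NAV and 3.33 in MOCK classical monocytes, against 410 and 828 CPM in C1q-high macrophages. Cd5l, a lipid-binding macrophage protein, was at 0.620 and 2.33 CPM against 430 and 395, and the iron exporter gene Slc40a1 at 1.55 and 1.33 CPM against 204 and 288. In the other direction Mmp8, the neutrophil collagenase, was at 240.5 and 368 CPM against 6.63 and 12.2, and Hp, haptoglobin, was at 170 and 495 CPM against 3.72 and 17.8. Nonclassical monocytes differed in Eno3, a muscle-type enolase, at 14.3 CPM in NAV and 9.0 in MOCK classical monocytes and 596 and 284 CPM in nonclassical ones, and in S1pr5, a receptor for sphingosine phosphate that lets cells leave the marrow, at 4.96 and 3.00 CPM and 198 and 155 CPM. F13a1, the coagulation factor XIII A subunit, was at 1083 and 1086 CPM in classical monocytes and at 4.21 and 64.5 CPM in nonclassical ones, from 2 and 5 UMIs.

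**Figure D1:**
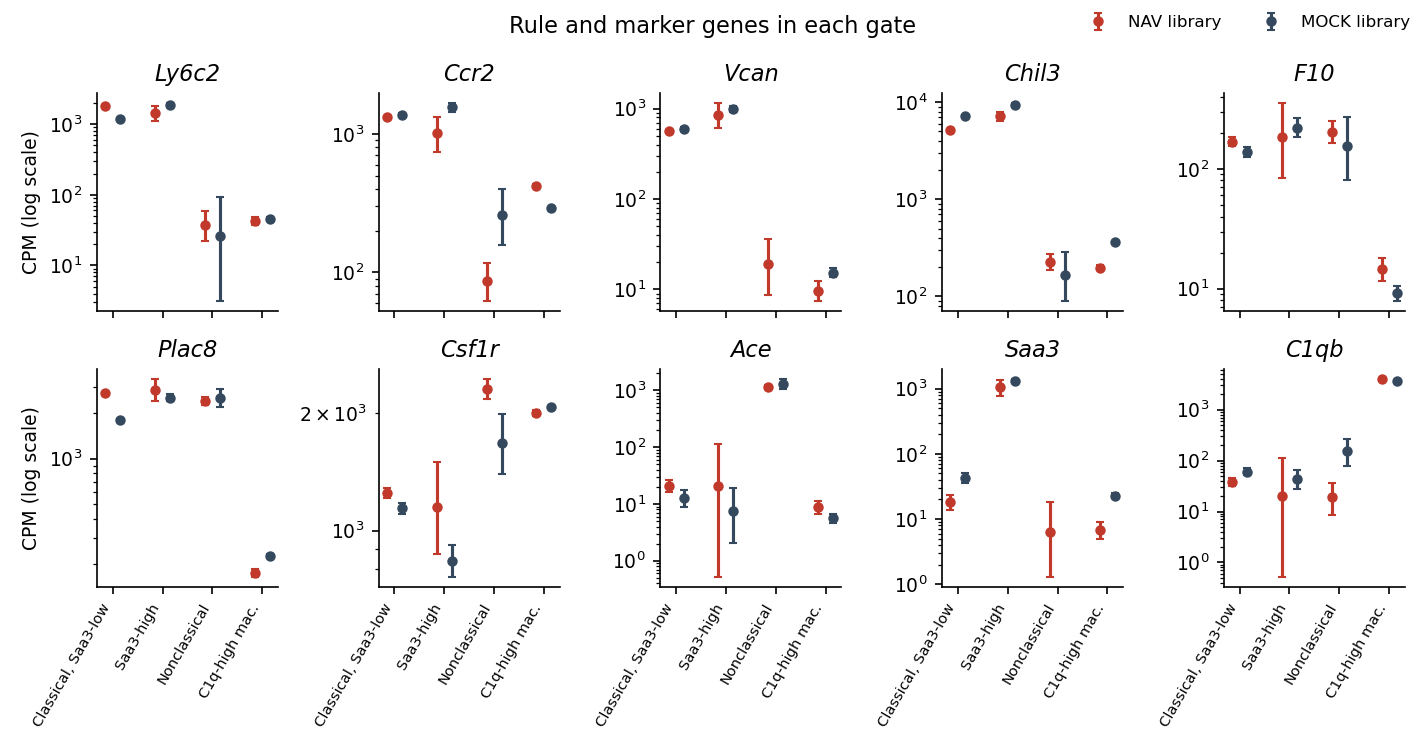
CPM of 10 rule and marker genes in the NAV (red) and MOCK (dark blue) libraries, for the classical monocytes and 3 gates cut from the same libraries, on log axes with 95% Poisson intervals. Genes without a UMI in a gate are not drawn. Plac8 lay between 1792 and 2858 CPM in all 3 monocyte gates and at 175 and 227 CPM in C1q-high macrophages.

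Transcripts listed as markers of other cell types were found in the cells to unlike degrees. Of 18 neutrophil markers, Ly6g and Camp had at most 3 UMIs in each library, while the whole list summed to 1670 CPM in NAV and 2920 CPM in MOCK cells, with 5 or more UMIs in 418 NAV and 430 MOCK cells. The 19 nonclassical monocyte markers summed to 2453 and 2212 CPM, with 5 or more UMIs in 625 and 530 cells. Of 17 dendritic cell markers Flt3, Xcr1 and Siglech had at most 3 UMIs in each library, and the list summed to 395 and 437 CPM, with 5 or more UMIs in 64 and 60 cells. Of 12 markers of Kupffer cells, the resident macrophages of the liver, the sum was 13.6 and 26.0 CPM, and no cell had 5 or more UMIs. Markers of T, NK and B cells summed to 89.0 and 41.0 CPM, with 5 or more UMIs in 10 NAV and 3 MOCK cells. Among 16 hepatocyte and bile duct genes 11 had at most 3 UMIs per library, and the list summed to 697 and 720 CPM. The part of such transcripts in the results below was not tested, except where values without the cells that hold them are given.

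The cells were 7.6% of kept barcodes in the NAV library (7.10 to 8.13%) and 6.07% in the MOCK library (5.63 to 6.54%), a log2 ratio of 0.32 (0.17 to 0.48). Nearby gates differed more between the libraries. Cells that passed every criterion but held 3 or more Saa3 UMIs numbered 11 in NAV and 98 in MOCK (log2 ratio -3.11), nonclassical monocytes 162 and 22 (2.93), and C1q-high macrophages 1089 and 3054 (-1.44). As a share of all barcodes with Csf1r and without neutrophil, lymphocyte or dendritic counts, the classical monocytes were 23.9% in NAV and 13% in MOCK, a log2 ratio of 0.88 (0.73 to 1.03). The ratio was smaller when every barcode was first thinned to 1500 UMIs, with the thresholds left unchanged. The choice then found 823 of 6653 NAV and 936 of 8105 MOCK barcodes. Their log2 ratio was 0.10, with an interval from -0.04 to 0.24. At this depth upper limits such as that on C1q exclude fewer cells, so the choice is partly another set. Only 499 NAV and 438 MOCK cells were common to both choices. Before thinning, 422 NAV and 890 MOCK barcodes failed on the C1q limit alone. The part of such cells in the smaller ratio was not tested. In sorted cells a share cannot separate more monocytes from fewer of the other leukocytes.

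**Figure D2:**
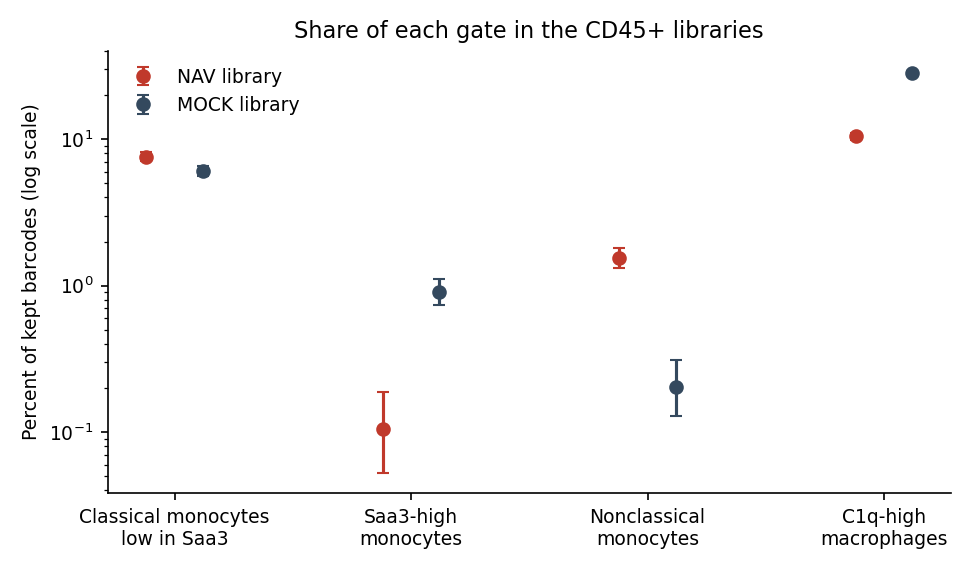
Share of kept barcodes, in percent on a log axis, of the classical monocytes low in Saa3 and of 3 neighbouring gates in the NAV (red) and MOCK (dark blue) libraries, with exact Clopper-Pearson 95% intervals. The classical monocytes, at 7.6% in NAV and 6.07% in MOCK, lay closest together.

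Depth was alike in the cells of both libraries, with medians of 3994 UMIs and 1749.5 genes in NAV and 4464.5 UMIs and 1907 genes in MOCK, and mitochondrial medians of 3.24% and 2.99%. At the edges of the choice, the 12 NAV and 37 MOCK cells with 2 Saa3 UMIs had 16002 and 15116 CPM of Lyz2, and the 4 NAV and 21 MOCK cells just outside, with 3, had 17382 and 13282 CPM. The 30 NAV and 9 MOCK cells with the lowest sum of 5 over the 4 monocyte genes had 7206 and 1972 CPM of Lyz2 and 3528 and 10017 CPM of the MHC class II gene H2-Ab1, and the 39 NAV and 19 MOCK cells just outside, with a sum of 4, had 6526 and 3356 CPM of Lyz2 and 3224 and 4395 CPM of H2-Ab1. At its low end the choice thus took in cells rich in MHC class II transcripts. The libraries shared 5 barcodes, none of them in the cells chosen. A doublet score above 0.25 was given to 11 of the NAV cells and to none of the MOCK cells.

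Among the 6 marker genes Ly6c2 and Plac8 were higher and Chil3 lower in NAV cells. Ly6c2 had 5916 UMIs in NAV and 3534 in MOCK cells, or 1834 and 1178 CPM, a log2 ratio of 0.64 (0.58 to 0.70). Plac8 had 8799 and 5374 UMIs, a ratio of 0.61 (0.56 to 0.66). Chil3 had 16750 and 21354 UMIs, or 5191 and 7120 CPM, a ratio of -0.46 (-0.49 to -0.43). Ccr2 differed little, at 4254 and 4143 UMIs (-0.07, -0.13 to -0.01), as did Vcan at 1809 and 1771 UMIs (-0.07, -0.17 to 0.02), whose interval held 0, and F10 had a ratio of 0.28 (0.09 to 0.47). All other kept barcodes pooled gave the same 3 directions, with a ratio of 0.64 for both Ly6c2 and Plac8 and -0.82 for Chil3. The neighbouring gates, whose shares of that pool differed between the libraries, did not all do so. Ly6c2 was at -0.38 (-0.76 to -0.03) in Saa3-high monocytes, 0.55 (-1.51 to 3.71) in nonclassical monocytes and -0.10 (-0.31 to 0.10) in C1q-high macrophages. Plac8 was at 0.17 (-0.09 to 0.42), -0.07 (-0.29 to 0.15) and -0.38 (-0.47 to -0.28) in the order named. Chil3 was at -0.39, 0.44 (-0.40 to 1.39) and -0.87. Ly6c1, whose sequence is close to that of Ly6c2, had 1 UMI in NAV and 2 in MOCK cells, so how reads were divided between the pair cannot be told from the tables.

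The levels per cell followed the sums. With each cell thinned to 2900 UMIs, which left 639 NAV and 560 MOCK cells and left out 155 and 94 shallower ones, the median cell held 4 Ly6c2 UMIs in NAV and 2 in MOCK, 7 and 4 of Plac8, and 10 and 18 of Chil3. At least 1 Ly6c2 UMI was found in 80.4% of NAV cells (77.1 to 83.5%) and 64.8% of MOCK cells (60.7 to 68.8%), and unthinned in 79.6% and 66.1%. Chil3 was in 83.1% of NAV and 94.1% of MOCK cells. B cells were read as a rough background, in which Ly6c2 was not evenly spread. All 715 NAV B cells held 167 Ly6c2 UMIs, in 23 cells, and all 731 MOCK ones held 44, in 19 cells. Whether these came from stray RNA or from the cells themselves was not tested. Of the 45 NAV and 24 MOCK B cells deep enough to thin, 20% and 16.7% held Ly6c2 and 6.67% and 12.5% held Chil3, while all B cells, at median depths of 1454 and 1304 UMIs, held Ly6c2 in 3.22% and 2.60%.

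Other genes of classical monocytes split in both directions. Of 25 such genes 24 were measured, which here means at least 50 UMIs over both libraries, and 0 were higher and 2 lower past the fold, meaning a log2 ratio of at least 1 in size with an interval on 1 side of 0. Of all 7701 genes measured in the cells 43 (0.558%) were higher and 332 (4.31%) lower past the fold. The list's median was 0.03, beside 0.01 over all genes, with 12 intervals above 0 and 8 below, where of all 7701 genes 1004 had an interval above 0 and 1152 one below. Lyz2, lysozyme of macrophages and monocytes, had 54775 UMIs in NAV and 35848 in MOCK cells. Its ratio was 0.51 (0.49 to 0.53), against -0.10 in all other barcodes pooled. Lyz2 was also higher in NAV within Saa3-high monocytes (0.23), nonclassical monocytes (0.17) and C1q-high macrophages (0.29), with every interval above 0. Ifitm3, a membrane protein that blocks virus entry, had a ratio of 0.54 (5505 and 3510 UMIs), and the membrane protein gene Ms4a4c one of 0.53 (1420 and 916 UMIs), against 0.19 and 0.00 in other barcodes. Lower in NAV were Thbs1, the matrix protein thrombospondin, at 27601 and 36401 UMIs (-0.50, -0.53 to -0.48), the integrin gene Itgam (-0.36) and fibronectin, Fn1 (-0.26). The 2 past the fold were Hp, at 548 and 1483 UMIs (-1.54), and Prtn3, a protease of granules, at 49 and 155 UMIs (-1.77), and in other barcodes both were lower still, at -1.82 and -2.26.

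S100a8, S100a9, Wfdc21 and Lcn2 were lower past the fold in NAV monocytes. S100a8, which encodes an antimicrobial calcium-binding protein, had 543 UMIs in 156 NAV cells and 2585 in 239 MOCK cells, a log2 ratio of -2.36 (-2.49 to -2.22), against -0.57 in other barcodes. Its partner S100a9 had 80 and 336 UMIs (-2.18, -2.55 to -1.82), against -0.45. The monocytes high in Saa3 shared this direction, with 1 UMI of S100a8 in their 11 NAV cells and 1341 in their 98 MOCK cells (-6.93, -12.24 to -4.45) and 0 and 146 UMIs of S100a9. After thinning, S100a8 was found in 17.4% of NAV and 34.5% of MOCK cells, against 6.67% and 12.5% of thinned B cells, which should lack it. Wfdc21, a small secreted protein, had 199 and 986 UMIs (-2.41), and Lcn2, the iron-sequestering lipocalin, 698 and 1327 (-1.03), against -1.22 and -1.25 in other barcodes. Of the 18 neutrophil markers 10 were measured, 0 higher and 3 lower past the fold (4.31% of all genes were lower), with a median of -0.37 against 0.25 in other barcodes. The median in the monocytes turned to 0.28 once the ratio in C1q-high macrophages was subtracted. The list had 3 intervals above 0 and 6 below, and among those above was the itaconate enzyme gene Acod1 at 0.92 (187 and 92 UMIs). Il1r2, a decoy receptor for interleukin 1, was lower in NAV monocytes (372 and 660 UMIs, -0.93) and higher in other NAV barcodes (1.26), a difference of -2.20 (-2.38 to -2.01).

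Genes of the type I interferon response were more often higher than lower in NAV monocytes, and more so than in other cells. Type I interferons are antiviral cytokines that act through a transcription factor complex, which binds the interferon-stimulated response element in the promoters of the genes it induces. Its core, a GAAA followed after a gap of any 2 bases by another GAAA, was searched on both strands and was found in 16 of 29 promoter windows of the list's genes, each of 300 bases (250 before and 50 after the start), in 15 of the 24 genes that had one, and in 1131 of 32851 windows of all genes (3.44%). In genes with overlapping matches the copies share letters. The windows of 4 of these genes are shown, with capitals on the matches, because the genes moved in different directions: Oas3, Rsad2 and Bst2 were higher and Isg15 lower in NAV monocytes. They are RefSeq promoter sequences of GRCm38.p6, all 4 on the minus strand and written in the gene's direction, at chr5:120777610-120777909, chr12:26456403-26456702, chr8:71537423-71537722 and chr4:156200769-156201068.
Oas3: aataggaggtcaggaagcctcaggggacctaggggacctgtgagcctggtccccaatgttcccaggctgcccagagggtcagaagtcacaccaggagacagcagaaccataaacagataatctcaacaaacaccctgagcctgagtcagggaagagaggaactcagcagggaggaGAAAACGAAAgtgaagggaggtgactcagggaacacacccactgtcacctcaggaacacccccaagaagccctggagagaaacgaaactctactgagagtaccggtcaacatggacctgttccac
Rsad2: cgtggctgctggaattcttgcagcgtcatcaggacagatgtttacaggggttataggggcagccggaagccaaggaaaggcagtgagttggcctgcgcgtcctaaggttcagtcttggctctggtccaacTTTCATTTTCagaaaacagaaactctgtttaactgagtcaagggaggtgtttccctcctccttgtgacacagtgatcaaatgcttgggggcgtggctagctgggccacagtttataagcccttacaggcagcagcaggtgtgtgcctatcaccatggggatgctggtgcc
Bst2: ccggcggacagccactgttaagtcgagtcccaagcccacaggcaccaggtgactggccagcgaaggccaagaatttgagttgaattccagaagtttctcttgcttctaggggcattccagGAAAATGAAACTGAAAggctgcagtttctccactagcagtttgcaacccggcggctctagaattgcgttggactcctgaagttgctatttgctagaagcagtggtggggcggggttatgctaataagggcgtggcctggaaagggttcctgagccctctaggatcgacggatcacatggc
Isg15: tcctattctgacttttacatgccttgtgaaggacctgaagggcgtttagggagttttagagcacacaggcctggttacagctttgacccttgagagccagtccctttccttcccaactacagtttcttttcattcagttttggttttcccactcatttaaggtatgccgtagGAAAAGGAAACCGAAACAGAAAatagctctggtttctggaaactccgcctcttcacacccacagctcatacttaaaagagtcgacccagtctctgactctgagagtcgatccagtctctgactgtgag
Oas3 and Rsad2 held 1 match each, that of Rsad2 on the other strand, Bst2 held 2 overlapping ones and Isg15 held 3. A match describes the letters and does not show that a factor binds there.

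Of 32 type I response genes 29 were measured, with 1 higher and 2 lower past the fold, 15 intervals above 0 and 4 below, beside 1004 above and 1152 below of all 7701 genes. The list's median log2 ratio was 0.37, against -0.12 in all other barcodes, -0.18 in C1q-high macrophages and 0.01 over all genes measured in the monocytes. Set gene by gene against other barcodes, the ratio was higher beyond counting error in 17 genes and lower in 0, beside 923 higher and 1169 lower of all 7701 genes. Xaf1, a pro-apoptotic interferon-induced protein, had 117 UMIs in NAV and 52 in MOCK cells (1.06, 0.58 to 1.56), against -0.11 in other barcodes. Oas3, a sensor of double-stranded RNA, had 144 and 78 UMIs (0.78, 0.37 to 1.20) against 0.09, and Zbp1, a sensor of Z-form nucleic acids, 278 and 153 (0.76, 0.47 to 1.05) against 0.36. Rsad2, the antiviral enzyme viperin, had 209 and 132 UMIs (0.56, 0.24 to 0.88) against 0.01, and Bst2, which tethers virus particles to the cell, 137 and 82 (0.63, 0.23 to 1.05) against -0.05. Of the genes of that complex, Stat2 had 193 and 139 UMIs (0.37) and Irf9 316 and 289 (0.02), whose interval from -0.21 to 0.26 held 0.

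Some of the best known members went the other way. Isg15, a ubiquitin-like protein, had 33 UMIs in NAV and 111 in MOCK cells (-1.86, -2.46 to -1.28), and Oas1a, another RNA sensor of the Oas family, 81 and 178 (-1.24). Irf7, a transcription factor that amplifies interferon production, had 104 and 149 UMIs (-0.62) and Ifit3, an inhibitor of viral RNA translation, 45 and 70 (-0.74). Isg15, Oas1a and Irf7 were lower in other barcodes as well, at -1.74, -1.89 and -1.39. The single interferon gene read, Ifnb1, had 0 UMIs in NAV and 1 in MOCK cells, so no source of interferon can be read in these cells. The list median lay between 0.25 and 0.55 under the 14 alternative settings tried.

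Interferon-gamma response genes and MHC genes had medians above 0 in NAV monocytes and in all other barcodes pooled. Many of their genes had intervals that held 0 or lay below it. In C1q-high macrophages the medians were -0.01 for the interferon-gamma list, 0.22 for MHC class I and 0.51 for MHC class II. Interferon gamma, a cytokine of T and NK cells, induces guanylate-binding proteins, immunity-related GTPases and the genes of antigen presentation. Of 23 response genes 15 were measured, with a median of 0.39 against 0.48 in other barcodes. Intervals lay above 0 in 7 and below in 1, beside 1004 and 1152 of all 7701 genes. Past the fold 2 were higher and 1 lower, where 0.558% and 4.31% of all genes were. Gbp2, a guanylate-binding protein, had 193 UMIs in NAV and 69 in MOCK cells (1.38, 0.97 to 1.80), against 1.20 in other barcodes, and the GTPase gene Ifi47 200 and 81 (1.20, 0.82 to 1.59), against 0.56. Wars, a tRNA synthetase that interferon gamma induces, was lower, at 27 and 57 UMIs (-1.18), against -1.31 in other barcodes. Of 18 genes of MHC class I and its peptide loading, all measured, 9 intervals lay above 0 and 3 below (1004 and 1152 of all 7701 genes), with a median of 0.38 against 0.36 in other barcodes. The heavy chain gene H2-D1 had 8757 and 5838 UMIs (0.48), the peptide transporter gene Tap1 341 and 165 (0.94), and Nlrc5, the transactivator of the class I genes, 176 and 80 (1.03), while the immunoproteasome genes Psmb8 (-0.70) and Psmb10 (-1.24) were lower.

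MHC class II transcripts were carried by a minority of the cells. H2-Ab1, a class II beta chain, had 2182 UMIs in 184 NAV cells and 1442 in 131 MOCK cells (0.49, 0.40 to 0.59). The invariant chain gene Cd74 had 2019 and 1328 UMIs (0.50). Of 14 class II and loading genes 12 were measured, with a median of 0.37 against 0.50 in other barcodes. Intervals lay above 0 in 6 and below in 4, beside 1004 and 1152 of all 7701 genes. Past the fold 0 were higher and 1 lower, where 0.558% and 4.31% of all genes were. The 1 lower was H2-DMa, a chain of the peptide editor, at 93 and 278 UMIs (-1.69), which was as low in other barcodes (-1.71). The median turned to -0.02 once the ratio of other barcodes was subtracted.

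**Figure D3:**
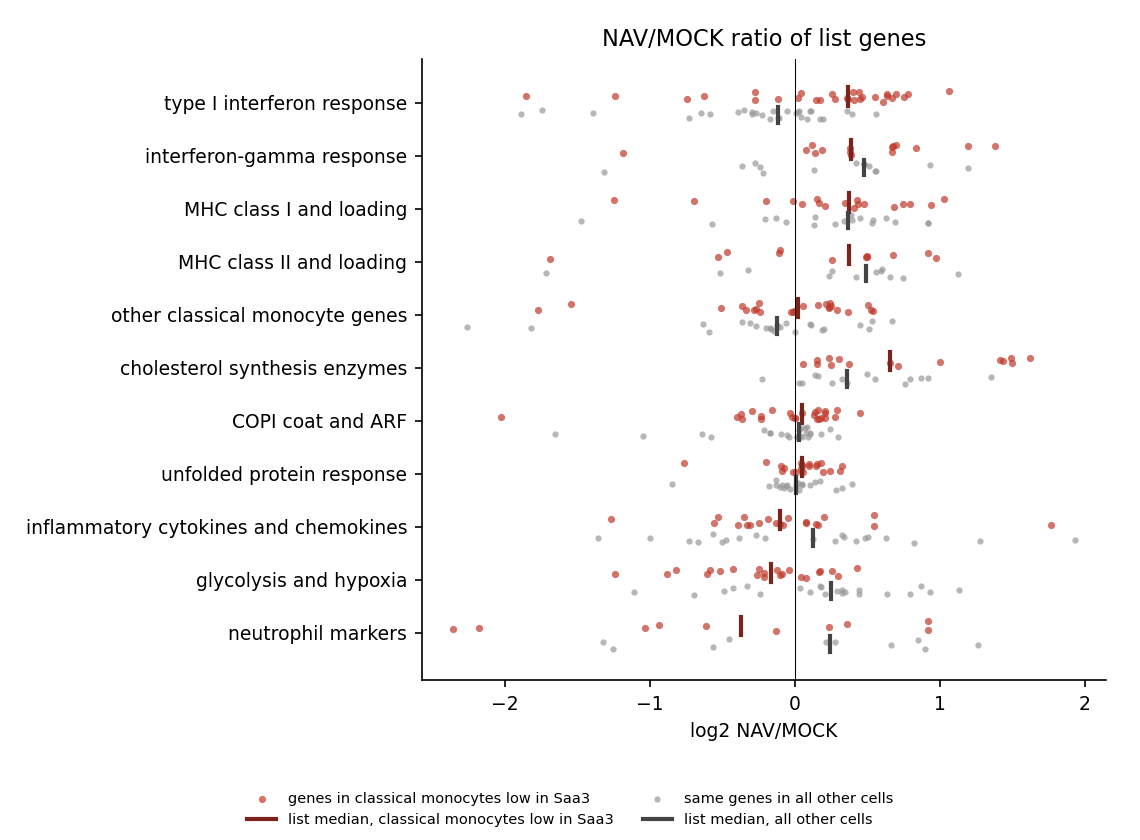
Log2 NAV/MOCK ratio of each measured gene in 11 gene lists, in the classical monocytes low in Saa3 (red) and in all other kept barcodes (grey), with list medians as vertical bars. The type I interferon list has its median at 0.37 in the monocytes and -0.12 in other cells, and the neutrophil list at -0.37 and 0.25.

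Several enzymes of cholesterol synthesis were higher in NAV monocytes, in a list drawn up after the values of Cyp51 had been seen. Cells make cholesterol from acetyl-CoA through mevalonate, squalene and lanosterol, and the transcription factor SREBP2 switches these genes on when sterol in the endoplasmic reticulum is low, held there by INSIG proteins otherwise. Of 20 enzymes 15 were measured, with 6 higher, Cyp51 among them, and 0 lower past the fold, where 0.558% of all genes were higher. The median was 0.66, against 0.36 in other barcodes and 0.17 in C1q-high macrophages. Intervals lay above 0 in 8 enzymes and below in 0, beside 1004 and 1152 of all 7701 genes. Beyond counting error, 5 had a higher ratio than in other barcodes and 1 a lower one, beside 923 and 1169 of all genes. Hmgcs1, which makes the precursor of mevalonate, had 216 UMIs in NAV and 100 in MOCK cells (1.01, 0.66 to 1.36). Idi1, an isomerase of the isoprenoid steps, had 154 and 53 (1.43), Fdps, which builds farnesyl diphosphate, 67 and 22 (1.5), and Fdft1, which makes squalene, 53 and 16 (1.62, 0.79 to 2.53). Sqle, squalene epoxidase, had 46 and 16 (1.42), and Cyp51, lanosterol demethylase, 290 and 96 (1.49, 1.15 to 1.84). In other barcodes these ratios were 0.56, 0.87, 0.76, 0.36, 0.92 and 0.80, in the order named. The list median of the monocytes lay between 0.16 and 0.75 under the alternatives, the lowest after the ratio in other barcodes was subtracted.

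Not every enzyme was higher, as the late enzyme gene Ebp had 338 UMIs in NAV and 302 in MOCK cells (0.06, -0.17 to 0.29). Regulators and sterol carriers were read in a second list of 21 genes, also drawn up after values were seen, with 16 measured and a median of 0.10. Past the fold 2 were higher and 1 lower, where 0.558% and 4.31% of all genes were. Stard4, a sterol carrier, had 102 and 33 UMIs (1.52, 0.94 to 2.14), against 0.43 in other barcodes. Insig1 had 485 and 272 (0.73, 0.51 to 0.95), against 0.03 in other barcodes. Elovl6, a fatty acid elongase, had 65 and 27 (1.16), Nr1h2, a sterol-sensing nuclear receptor, was lower at 58 and 169 (-1.65, against -1.27 in other barcodes), and Abca1, a cholesterol exporter, had 330 and 540 (-0.82). The sterol regulatory element core TCACNCCAC, searched on both strands, was found in 1 of 18 windows of the 15 enzymes that had one, that of Hmgcs1, and in 408 of 32851 windows of all genes (1.24%). The Hmgcs1 window is shown for that match, in capitals, on the plus strand of GRCm38.p6 at chr13:119690101-119690400, from RefSeq.
Hmgcs1: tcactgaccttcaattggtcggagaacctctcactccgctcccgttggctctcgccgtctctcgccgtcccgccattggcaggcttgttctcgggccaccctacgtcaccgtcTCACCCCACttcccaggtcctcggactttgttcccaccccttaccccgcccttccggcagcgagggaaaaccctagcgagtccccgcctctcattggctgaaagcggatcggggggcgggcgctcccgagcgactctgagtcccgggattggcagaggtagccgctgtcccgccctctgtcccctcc

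Genes of the coat and GTPases that the drug is directed at differed little. NAV2729 acts on ARF activation, and ARF1 recruits the COPI coat that returns vesicles from the Golgi to the endoplasmic reticulum. Of 27 COPI and ARF genes 25 were measured, with a median of 0.05, and 6 intervals lay above 0 and 6 below. Past the fold 0 were higher and 1 lower, where 0.558% and 4.31% of all genes were. The 1 lower was Arfgap2, an ARF GTPase-activating protein, at 32 UMIs in NAV and 121 in MOCK cells (-2.02), which was also lower in other barcodes (-1.65). Copa, the coat's alpha subunit, had 672 and 516 UMIs (0.28, 0.11 to 0.44), and Arf1 1969 and 2038 (-0.16, -0.25 to -0.07). Of 24 genes of the unfolded protein response, which is set off by misfolded proteins in the endoplasmic reticulum, 21 were measured. Of these 0 were past the fold in either direction, and the median was 0.05. Intervals lay above 0 in 8 and below in 1, beside 1004 and 1152 of all 7701 genes. Hspa5, the chaperone BiP, had 4513 and 4065 UMIs (0.05, -0.02 to 0.11), and Xbp1, a transcription factor of the response, 867 and 679 (0.25). Transcript levels say nothing of the activity of the proteins.

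Of 28 cytokine and chemokine genes 21 were measured, with a median of -0.10 that turned to 0.12 once the ratio in other barcodes was subtracted. Past the fold 1 was higher and 1 lower, where 0.558% and 4.31% of all genes were. Il1b, interleukin 1 beta, had 6616 UMIs in NAV and 7616 in MOCK cells (-0.31, -0.36 to -0.26), and its natural antagonist Il1rn 678 and 926 (-0.56), whereas both were higher in other NAV barcodes, at 0.33 and 0.34. Tnf had 219 and 139 UMIs (0.55), against 0.48 in other barcodes. The monocyte attractant Ccl7 had 30 and 67 UMIs (-1.26) and Ccl2, the main ligand of CCR2, 401 and 423 (-0.18, -0.38 to 0.02). Of 23 glycolysis and hypoxia genes 22 were measured, with a median of -0.16 against 0.25 in other barcodes, and the ratio was lower than in other barcodes beyond counting error in 14 genes and higher in 0, beside 1169 lower and 923 higher of all 7701 genes. The pool of other barcodes differed in make-up, with C1q-high macrophages at 10.4% of kept barcodes in NAV and 28.4% in MOCK. Within C1q-high macrophages the list median was 0.10. The NAV/MOCK ratio itself had 4 intervals above 0 and 8 below in this list in the monocytes. Bnip3, a mitophagy receptor that hypoxia induces, had 135 and 191 UMIs (-0.61). Its ratio was 0.94 in other barcodes but 0.09 (-0.10 to 0.28) in C1q-high macrophages. Eno1, a glycolytic enolase, had 751 and 1646 (-1.24), against -1.11 in other barcodes and -1.35 in C1q-high macrophages.

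Of 14 Fc and scavenger receptor genes 12 were measured, with a median of -0.52 against -0.58 in other barcodes. Intervals lay above 0 in 2 and below in 8, beside 1004 and 1152 of all 7701 genes. Past the fold 1 was higher and 1 lower, where 0.558% and 4.31% of all genes were. Lrp1, an endocytic receptor, was the 1 lower, at 625 UMIs in NAV and 1295 in MOCK cells (-1.16), against -1.56 in other barcodes. The list median turned to 0.47 once the ratio in other barcodes was subtracted. Cx3cr1, the fractalkine receptor, which rises as monocytes mature, had 1319 UMIs in NAV and 941 in MOCK cells (0.38, 0.26 to 0.50). Its ratio was 0.02 (-0.03 to 0.06) in C1q-high macrophages, 0.18 (-0.32 to 0.72) in nonclassical and 1.87 (1.19 to 2.52) in Saa3-high monocytes. In all other barcodes pooled it was -0.70. Cd36, a scavenger receptor for lipids, had 248 and 108 UMIs (1.09), against 0.33, in 80 NAV and 59 MOCK cells. After thinning it was found in 8.76% of NAV (6.69 to 11.2%) and 6.61% of MOCK cells (4.69 to 8.99%), so these intervals overlapped. Cd36 was the 1 receptor of that list higher past the fold, as well as the 1 gene past the fold among 17 measured genes of nonclassical monocytes. Nr4a1, the transcription factor that nonclassical monocytes need, had 1897 and 1860 UMIs (-0.08, -0.17 to 0.02). Of 18 measured monocyte transcription factors 1 was past the fold, Cebpa, a myeloid lineage factor, at 255 and 608 UMIs (-1.36), which was lower in other barcodes too (-1.79). Klf4, a factor that monocyte formation requires, had 2481 and 1802 UMIs (0.36, 0.27 to 0.44), against -0.12 in other barcodes. Csf1r had a ratio of 0.13.

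Across all genes the lower group was the larger, and much of it was shared with other cells. Of the 332 lower genes 214 were also lower past the fold in all other barcodes, and 226 in C1q-high macrophages, and of the 43 higher genes 8 and 4 were also higher past the fold there. Without regard to the fold, 314 of the lower genes had a ratio below 0 in C1q-high macrophages and 37 of the higher genes one above 0. Over all 7701 genes the median ratio was 0.06 in other barcodes and 0.01 in C1q-high macrophages. The share of all genes past the fold in those cells was not counted, so these overlaps have no background beside them. After subtracting the ratio in other barcodes, 53 genes were higher and 91 lower past the fold, and after subtracting that in C1q-high macrophages 59 were higher and 53 lower. Among the lowest genes were several that any cell uses. Fau, a ribosomal protein fused to a ubiquitin-like protein, had 364 UMIs in NAV and 1877 in MOCK monocytes (-2.47), with -2.18 in other barcodes and -2.32 in B cells, and Ppp1ca, a catalytic subunit of protein phosphatase 1, 242 and 1236 (-2.46), with -2.57 and -2.23. Ctsd, the lysosomal protease cathepsin D, had 221 and 1104 (-2.43), with -2.88 in other barcodes. Ecm1, a secreted matrix protein, had 93 and 896 (-3.37), Cyp4f18, a hydroxylase of leukotrienes, 124 and 783 (-2.76), Tmem119, a membrane protein, 9 and 112 (-3.74), and the metallothionein gene Mt2 61 and 330 (-2.54). The other-barcode ratios of these 4 were -3.17, -2.10, -3.22 and -2.17, in the order named.

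**Figure D4:**
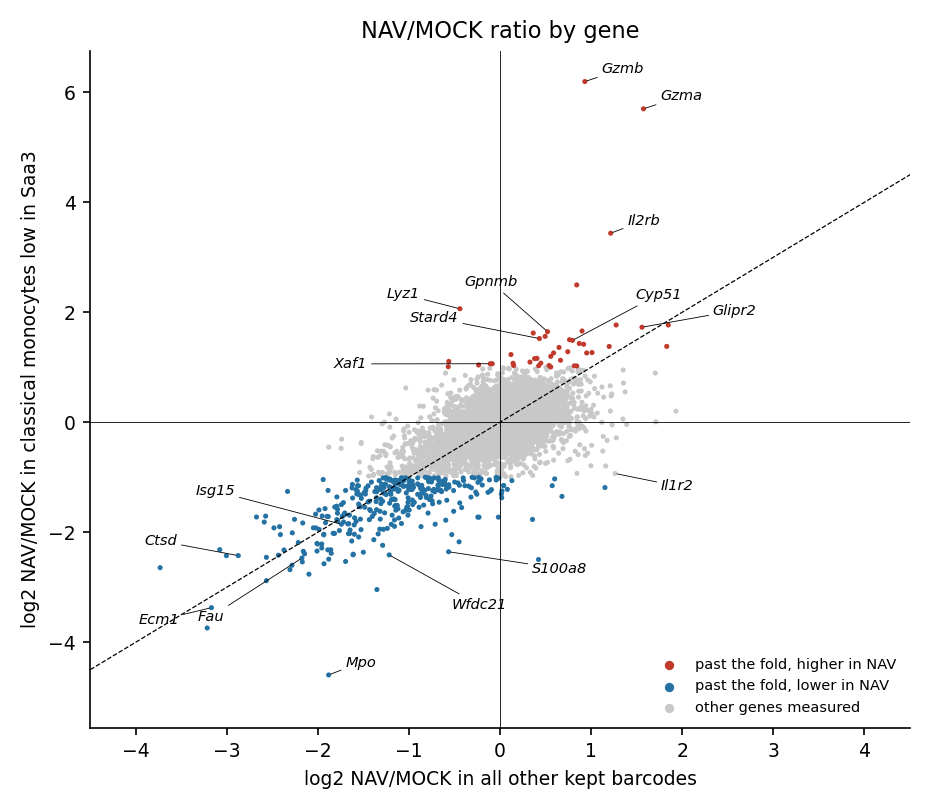
Log2 NAV/MOCK ratio of 7701 genes in the classical monocytes low in Saa3 against that in all other kept barcodes, with genes past the fold in red (43 higher) and blue (332 lower) and the dashed line marking equal ratios. Fau, Ctsd and Ecm1 lie near the line, and S100a8 and Lyz1 away from it.

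The genes highest in NAV monocytes were of unlike make-up. Glipr2, a protein of the Golgi surface, had 631 UMIs in 337 NAV cells and 177 in 125 MOCK cells (1.73, 1.49 to 1.98), with at most 9 in any cell, and its ratio in other barcodes was 1.56. Gprc5a, an orphan receptor, had 119 UMIs in 87 NAV and 35 in 22 MOCK cells (1.66), against 0.90 in other barcodes. Gpnmb, a glycoprotein of lipid-laden macrophages, had 1591 and 472 UMIs (1.65, 1.5 to 1.80), but in 66 NAV and 74 MOCK cells, and the 5 highest cells held 54.1% of them in NAV and 56.4% in MOCK. Its ratio was 0.22 when the choice was made on thinned barcodes and 1.01 among cells without a Saa3 UMI. Gzmb and Gzma, granzymes of cytotoxic lymphocytes, had 79 UMIs in 7 NAV cells and 56 in 6, with 51 and 31 in single cells, and 1 UMI each in MOCK cells. Il2rb, a receptor chain of NK and T cells, had 105 UMIs in 28 NAV and 9 in 8 MOCK cells (3.44), the chemokine gene Ccl5 132 in 22 and 36 in 10 (1.77), and the granzyme inhibitor gene Serpinb9 79 in 23 and 13 in 12 (2.5). Without the 49 NAV and 23 MOCK cells that held any of 8 lymphocyte genes, 39 genes were higher past the fold, 32 of them among the 43. A count of UMIs that sit in a few cells is less certain than its interval, which takes every UMI as independent. Lyz1, a lysozyme gene close in sequence to Lyz2, had 63 UMIs in 21 NAV and 14 in 13 MOCK cells (2.06), with 30 in 1 NAV cell. At the other end Mpo, myeloperoxidase of granulocyte and monocyte precursors, had 4 UMIs in NAV and 90 in MOCK cells, of which 87 sat in 1 MOCK cell.

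Among themselves the cells ran over a range of Chil3. After thinning, 108 of 639 NAV cells (16.9%, 14.1 to 20.04%) and 33 of 560 MOCK cells (5.89%, 4.09 to 8.18%) held no Chil3 UMI, 99 (15.5%) and 52 (9.29%) held 1 to 4, and 432 (67.6%) and 475 (84.8%) held 5 or more. These are ranges of 1 measure and not types. Cells without Chil3 carried most of the class II transcripts, with H2-Ab1 at 2624 CPM in NAV and 4579 in MOCK, against 1003 and 555 CPM in cells with 1 to 4 and 152 and 129 CPM in cells with 5 or more. They also held Cd209a, a lectin of monocyte-derived dendritic cells, at 129 CPM in NAV and 157 in MOCK, where cells with 5 or more Chil3 UMIs held no UMI in NAV and 0.434 CPM in MOCK, and the lectin-like receptor gene Klrd1 at 87.7 and 83.4 CPM against 1.03 and 2.17. Mgl2, a lectin of dendritic cells and macrophages, was at 50.1 CPM in NAV and 510 in MOCK cells without Chil3, though only 4 NAV and 9 MOCK monocytes held a UMI of it. Flt3, a receptor of dendritic cells, was kept at 0 by the choice. H2-Ab1 was thus lower in NAV than in MOCK among cells without Chil3 and higher among cells with 1 to 4 Chil3 UMIs. With 5 or more its intervals overlapped, at 135 to 170 CPM in NAV and 115 to 144 CPM in MOCK.

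At the high end of Chil3 stood S100a8, Lcn2, Wfdc21 and Rhou. S100a8 was at 224 CPM in NAV and 1024 in MOCK cells with 5 or more Chil3 UMIs, against 16.7 and 24.5 CPM in cells without, and Lcn2 at 302 and 535 against 18.8 and 24.5. Wfdc21 was at 91.0 and 404 CPM against 6.26 and 4.91, and Rhou, a small GTPase, at 152 and 136 against 18.8 and 29.4. S100a8 was therefore lower in NAV within the high range as well as over all the cells. Ly6c2 was at 1543, 1272 and 2098 CPM in NAV and 1094, 1050 and 1257 CPM in MOCK, from no Chil3 UMI to 5 or more, but cells without Chil3 had to reach the threshold through Ly6c2, Ccr2 and Vcan, so the choice bears on these levels. Nr4a1, which the choice did not use, was at 605, 637 and 548 CPM in NAV and 628, 563 and 606 CPM in MOCK. Gpnmb peaked in the middle range, at 1381 CPM in NAV and 1036 in MOCK cells with 1 to 4 Chil3 UMIs, against 376 and 71.2 CPM with 5 or more. Lyz2 was higher in NAV in each range, at 11035, 13538 and 19315 CPM in NAV and 6841, 8967 and 12816 CPM in MOCK, from none to 5 or more.

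**Figure D5:**
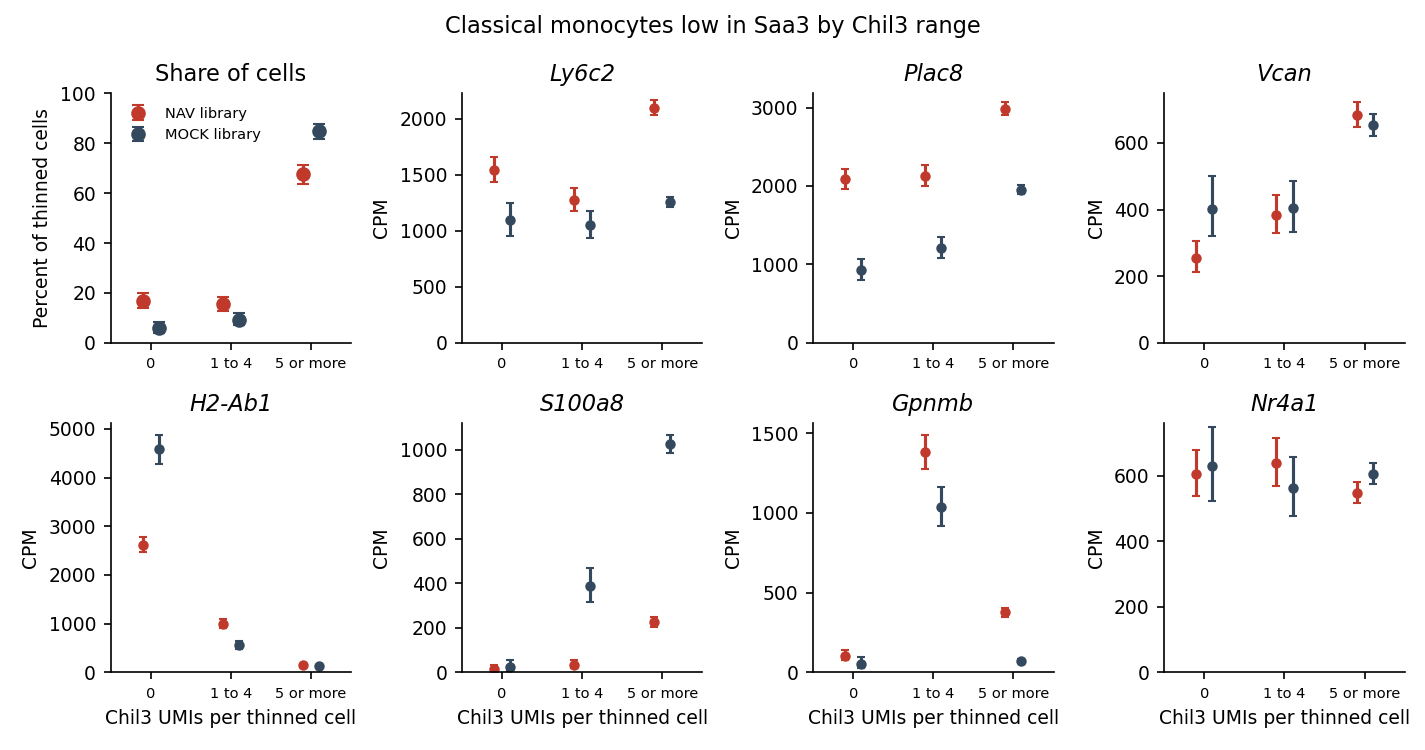
Share of thinned cells in 3 ranges of Chil3 UMIs (top left, percent with Clopper-Pearson intervals) and CPM of 7 genes in each range with 95% Poisson intervals, for the NAV (red) and MOCK (dark blue) libraries. H2-Ab1 is highest in cells without Chil3 (2624 CPM in NAV and 4579 in MOCK) and S100a8 in cells with 5 or more (224 and 1024 CPM).

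Genes of proliferation were low in both libraries. Mki67, a marker of dividing cells, had 31 UMIs in 20 NAV cells and 47 in 25 MOCK cells. Of 24 cell cycle genes 11 were measured, with a median of -0.21 and 0 past the fold. The heat shock genes Hspa1a, at 844 and 385 UMIs (1.03), and Hspa1b (0.84), and the stress factor gene Atf3, at 359 and 184 UMIs (0.86), were higher in NAV, which are among the genes that tissue digestion can induce. Hspa1a and Hspa1b are near-identical copies, so the division of reads between them is uncertain. In other barcodes the ratios of the 3 genes were 0.42, 0.62 and -0.02. The 20 measured genes of digestion and early response had a median of -0.01. Of them 1 was higher and 1 lower past the fold, where 0.558% and 4.31% of all genes were.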

How the data were processed

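The deposited values are UMI counts per gene and cell barcode, 1 matrix for each of the 2 libraries, not normalized. Per the submitters' processing notes the tools were fastp, STARsolo 2.7.10a and Cell Ranger and the build mm10, with no role given for each. Barcodes with at least 500 UMIs, at least 200 genes and under 20% mitochondrial UMIs were kept, and the monocytes were then chosen by UMI thresholds. The members and the gene lists were chosen with earlier results of these data known, and 2 lists, on cholesterol and sterols, after values had been seen.

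UMIs were summed over the cells of a library, given as CPM, and compared as log2 NAV/MOCK with exact conditional 95% intervals, Clopper-Pearson intervals for shares and Poisson intervals for levels. Genes with at least 50 UMIs over both libraries were measured. Named genes are those of the rule and markers, the 10 highest and 10 lowest, the 8 each way that differed most from other barcodes, up to 3 most abundant and 3 past the fold per list, and 6 each way per neighbouring gate. Outside this rule, Acod1, Atf3, Bst2, Ccl2, Cd209a, Copa, Fdps, Hmgcs1, Hspa1b, Ifit3, Ifitm3, Ifnb1, Igfbp4, Il1rn, Insig1, Irf7, Irf9, Itgam, Klrd1, Mki67, Oas3, Psmb8, Rhou, Rsad2, Sqle, Stat2, Tap1, Tnf, Trem2, Xbp1 and Zbp1 were chosen after values had been seen.

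Doublets were kept. Scrublet's own limit (scanpy 1.11.5) marked 1 NAV and 2 MOCK barcodes, too few to have worked, so a score of 0.25 served as an alternative. Other tools were Python 3.11.15, numpy 2.4.6, scipy 1.17.1, pandas 2.3.3 and matplotlib 3.10.9. The ratio script was tested on simulated counts. Promoters were RefSeq windows of GRCm38.p6 matched by symbol, with chromosome 18 left out. Some genes are not reported here.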

Additional observations from a re-analysis of the deposited data

Results flagged for a closer look

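Lyz1 had a log2 NAV/MOCK ratio of 2.06 in the classical monocytes and -0.44 in all other kept barcodes, opposite directions in the 2 sets of cells. Of its 63 UMIs in NAV monocytes 30 sat in 1 cell, and its neighbour Lyz2 is close in sequence. Mgl2 had a ratio of -1.15 in the monocytes and 0.57 in other barcodes, with its UMIs in 4 NAV and 9 MOCK monocytes. With 1 library per group, neither difference was tested.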

How the results depend on the processing

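No paired analysis was possible because each group is 1 library. The share ratio of 0.32 moved to 0.10 when the choice was made on barcodes thinned to 1500 UMIs and to 0.88 over mononuclear phagocytes, and lay between 0.18 and 0.46 under the other choices of cells. With a minimum of 20 UMIs 99 genes were higher and 506 lower past the fold, and with 200 UMIs 10 and 135. Subtracting the ratio of other barcodes left 91 lower, and subtracting that of C1q-high macrophages, chosen after seeing the data, 53.

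Some directions turned. H2-DMb2 went to 0.055 under the choice on thinned barcodes and to 0.11 with a 4-gene sum of at least 3, where the cell cycle median was 0.061. The dendritic median was -0.041 at 200 UMIs. Less the ratio of other barcodes, values were Ace -0.16, C1qb 0.11, C1qc 0.47, Ccr2 0.047, Chil3 0.36, Csf3r -0.54, Ctsd 0.45, F10 -0.25, Ly6c2 -0.0025, Oas1a 0.65, Plac8 -0.030, Ppp1ca 0.11 and Saa3 1.08. List medians were then inflammatory 0.12, MHC class II -0.019, macrophage differentiation 0.45, nonclassical -0.0066, dendritic -0.41, progenitor 0.39, hepatocyte 0.43, Fc receptors 0.47 and acute-phase 0.31. Less the ratio of C1q-high macrophages, values were Chil3 0.41, F10 -0.39, Isg15 0.070, Oas1a 0.56, Ppp1ca 0.062 and Saa3 0.49, and medians MHC class II -0.23, dendritic -0.66, neutrophil 0.28, progenitor 0.21, Fc receptors 0.014 and acute-phase 0.45. The cause of these changes was not tested. Leaving out cells with lymphocyte transcripts, also chosen after seeing the data, left 39 genes higher, 32 of them shared with the 43.

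Counting intervals do not cover differences between animals, pools or captures, which 1 library per group cannot show. Genes under 50 UMIs were not compared.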

Other observations

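Of the genes whose ratio in the classical monocytes lay furthest above that in other barcodes, Lgals3bp, a secreted glycoprotein that binds galectin 3, had 668 UMIs in NAV and 433 in MOCK monocytes, a log2 ratio of 0.52 (0.34 to 0.70), against -0.57 in other barcodes. Sdc3, a heparan sulphate proteoglycan, had 527 and 521 UMIs (-0.09, -0.27 to 0.09) against -1.21, and the complement gene C4b 66 and 76 (-0.31) against -1.74, with both intervals holding 0 in the monocytes. Lima1, an actin-binding protein, had 68 and 41 UMIs (0.62) against -1.04. Outside those genes, Apoe, a lipid carrier of macrophages, had 2621 and 3861 (-0.66, -0.74 to -0.59) against -1.05. Trem2, a lipid-sensing receptor, had 254 and 440 (-0.90) against -1.22. Within C1q-high macrophages Apoe was at -0.18 (-0.20 to -0.16), a smaller drop than in the monocytes, and C4b at -0.62 (-0.74 to -0.50).

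In the other direction Cd24a, a surface glycoprotein of immature leukocytes, had 291 UMIs in NAV and 468 in MOCK monocytes (-0.79, -1.01 to -0.58), against 1.0 in other barcodes, and the neutrophil attractant gene Cxcl3 68 and 55 (0.20, -0.33 to 0.74) against 1.93. Of 11 progenitor and granule genes 7 were measured and 4 were lower past the fold, where 4.31% of all genes were. Of these 4, 1 was Mpo, with 87 of its 90 MOCK UMIs in 1 cell. Cd177, a surface protein of neutrophils and their precursors, had 132 and 612 UMIs (-2.32), against -3.08 in other barcodes, and Igfbp4, which binds insulin-like growth factors, 20 and 51 (-1.46) against -1.01. Of 14 measured immunosuppressive genes 1 was lower past the fold, where 4.31% of all genes were. It was the interleukin 4 receptor gene Il4ra, at 460 and 977 UMIs (-1.19), against -1.20 in other barcodes.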
